A study of Salmo salar with 30 samples.

Results

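Atlantic salmon fed soybean meal were compared with salmon fed a control feed rich in fish meal, by gene expression in the distal intestine. The comparison used the 5 fish whose feed held soybean meal and no additive package, and the 5 control fish, which are 10 of the 30 samples of the study. All fish weighed 177 g at the start, were spread over 18 tanks and were fed for 67 days at 11.2 °C. Total RNA of each fish was labelled with Cy3 and hybridised to its own 1-colour Agilent array. Of the other 4 diets, 2 held soybean meal with a package and 2 held corn gluten, another plant protein, for which the names of the deposited data also mention pea. The first package, P1, added arginine at 1.5% and butyrate at 0.01%. The second, P2, added nucleotides at 0.05%, butyrate at 0.01% and β-glucan at 0.1%. The labels do not give the share of soybean meal in the feed, the tank of each fish, or any sign of inflammation in single fish.

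The distal intestine is the hindmost gut segment of the salmon, where enterocytes take up intact proteins and other large molecules from the gut content into large vacuoles. Soybean meal is the classical cause of a diet-induced enteritis of this segment in salmon, known for shortened mucosal folds, loss of the enterocytes' vacuoles and entry of immune cells into the mucosa. In tissue samples of this kind, fewer cells of a type and less RNA per cell cannot be told apart. The probe identifiers carry no gene names, and 0 of 14841 matched the gene table used here, so the tissue could not be checked against its marker genes. The response is therefore described over all probes by signal level, detection, size and spread between fish, and through 4 probes given by identifier.

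A probe's value is the log2 of its processed signal minus the 75th percentile of its array, so a value of 0 is that percentile. A probe was called detected where the scanner software marked it as well above background, and probes detected on at least 5 of the 30 arrays were kept. This kept 13577 probes and left out 1264, and 13576 could be tested. At the edge of that filter, 83 probes were detected on exactly 5 arrays, with a median size of the diet difference of 0.38 log2 units, and 72 were detected on exactly 4, with 0.56. Soybean meal arrays had 12721 to 13208 detected probes and control arrays 12491 to 13376.

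One control fish lay closer to the soybean meal fish than the rest of its diet. Each fish was left out in turn, the probes that differed between the diets were chosen without it, and it was placed on a scale where 0 is the mean of the remaining control fish and 1 that of the remaining soybean meal fish. Soybean meal fish 1 to 5 stood at 1.04, 0.88, 1.06, 0.74 and 0.82. Control fish 1 to 5 stood at 0.41, 0.11, 0.0024, -0.14 and 0.0021. The diets did not overlap on this scale, but control fish 1 stood closer to the soybean meal fish than any other control fish did. Of the 4528 probes chosen without it, it was nearer to the soybean meal fish at 41.2%, against 5.79% to 15.9% for the other 4 control fish on their own probe sets. Its array also had the most detected probes of all 10, and its raw 75th percentile of signal, 826, lay within the soybean meal range of 745 to 862, while the other control arrays had 551 to 689. Across all kept probes it correlated at 0.981 with soybean meal fish 4, the highest value between the diets. By Dixon's criterion neither its position nor its number of detected probes was an outlier, with a gap of 0.538 and 0.670 of the control range against a critical value of 0.71. Its mean correlation with the other control fish, 0.974, was no lower than that of control fish 3. The part of these array measures in its position was not tested. Several counts and shares that rest on the control fish are given below with and without it. The other results, among them the named probes, the bounds and the signal shares, include it.

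**Figure D1:**
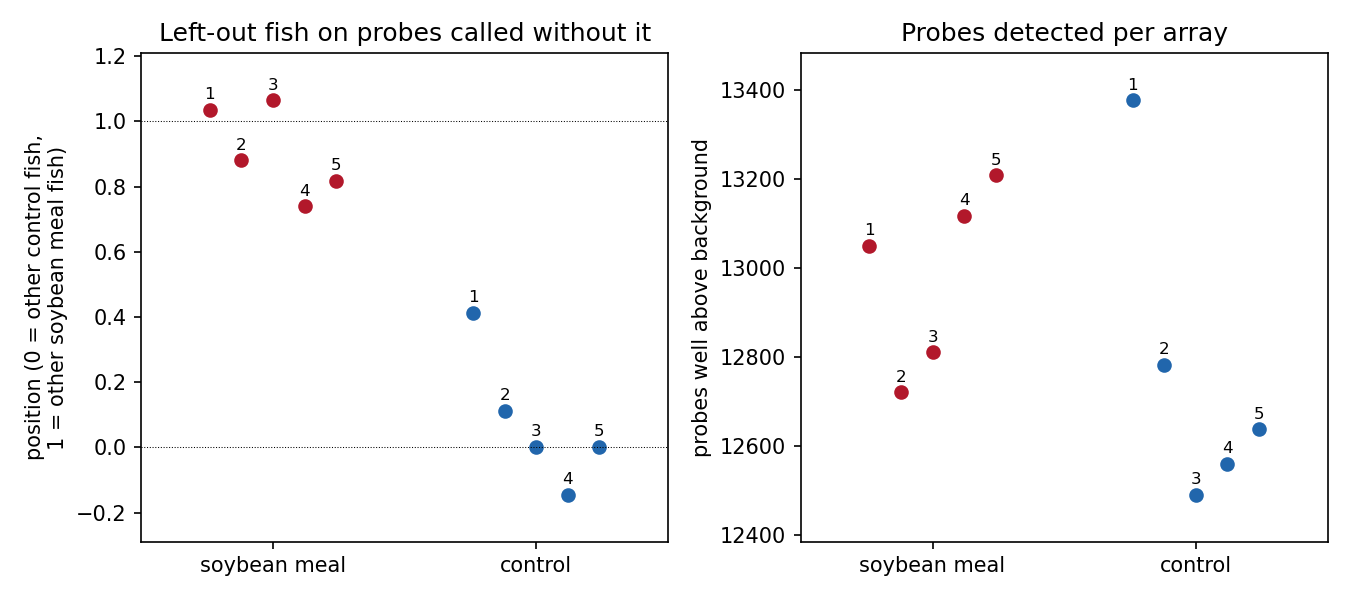
Left, the position of each left-out fish (0, mean of the other control fish; 1, mean of the other soybean meal fish) and, right, the number of probes well above background on its array (the axis does not start at 0); each point is 1 fish, numbered within its diet. All soybean meal fish lie at 0.74 or above and all control fish at 0.41 or below, and control fish 1, the highest control fish, also has the most detected probes, 13376.

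A large part of the probes differed between soybean meal and control fish. More of them were lower than higher with soybean meal, except under the array median, quantile and authors' scalings given below. In limma, 4107 of 13576 probes (30.3%) differed between soybean meal and control fish at a Benjamini-Hochberg adjusted p below 0.05. Of these, 1750 (12.9% of all tested) were higher with soybean meal and 2357 (17.4%) were lower. The median difference was 0.62 log2 units among the probes called higher and -0.75 among those called lower, against -0.03 over all tested probes. Without control fish 1, 4528 probes (33.4%) passed, 2011 of them higher and 2517 lower. With each array scaled to its median, 1986 probes were higher and 1977 lower, after quantile normalization 2089 and 2067, and 1915 and 1664 in the values the authors normalized, so that the share of higher probes among those called was 50.1%, 50.3% and 53.5% in place of 42.6%. With normexp background correction fitted without flagged backgrounds, that share was 28.0%, from 1463 higher and 3769 lower. This version adds an offset of 50 to every signal. It called 6 higher and 1058 lower among the 2716 dimmest probes, and 671 and 646 among the 2715 brightest.

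The 2 diets shared no slide, so they could not be compared within a slide. Soybean meal fish 1 and 2 were on slide 6, fish 3 and 4 on slide 5 and fish 5 on slide 4, while control fish 1 and 2 were on slide 1, fish 3 and 4 on slide 2 and fish 5 on slide 3. Each slide also held fish of other diets, through which slide could enter the model as a term. With it, 2548 probes passed in limma, 1057 higher and 1491 lower, and all 4107 probes called without it had the same direction. The p-values, those of the permutation tests below included, rest on the spread between fish and count each fish as independent. They would be too small where fish shared a tank and resembled each other for it. The numbers in the names of the deposited data formed 18 runs of consecutive numbers, as many as the tanks. Soybean meal fish 1 and 2 shared a run, as did fish 3 and 4, and control fish likewise. Whether a run was a tank is not stated. With run as a random block, 3936 probes were called.

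By the median array of either diet, the called lower and the called higher probes each held a larger part of the total signal than of the tested probes. Brighter probes were called more often, as given below, and the part of this in the shares was not tested. The called lower probes were 17.4% of the tested probes. They took 20.8% to 24.03% of the summed signal of a soybean meal array (median 21.5%), against 31.2% to 38.3% of a control array (median 35.8%). The called higher probes were 12.9% of the tested probes and took 20.3% to 24.1% of the signal with soybean meal (median 22.7%), against 12.6% to 16.2% with control feed (median 14.3%). These shares describe probes that the same arrays selected and were given no test. In both sets the ranges of the 2 diets did not overlap.

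The share of probes that passed rose with signal level, while the size of the differences among them fell. The tested probes were ordered by their mean over all 30 arrays and divided into 5 bins of 2715 or 2716. From the dimmest to the brightest bin, 17.3%, 24.6%, 30.5%, 34.7% and 44.2% of the probes were called. The median size of a called difference was 1.36, 0.82, 0.67, 0.59 and 0.57 log2 units in the same order. Over all probes of a bin, called or not, the median size was 0.46, 0.34, 0.28, 0.26 and 0.29, so it varied less than among called probes. The median standard error of the difference was 0.38, 0.23, 0.17, 0.14 and 0.13 log2 units. The smallest difference that was called was 0.38 in the dimmest bin and 0.19 in the brightest. Without control fish 1 the shares called were 20.7%, 28.0%, 33.0%, 37.9% and 47.4%. With only the 2 diets in the fit they were 18.9%, 22.8%, 23.6%, 25.6% and 31.6%, a smaller rise. With slide as a fixed term they were 7.40%, 13.2%, 18.9%, 23.3% and 31.0%.

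The brightest probes were called most often, and a smaller share of their calls was large than among dim probes. Of the 1200 called in the brightest bin, 17.8% differed by more than 2-fold, whereas 72.1% of the 470 called in the dimmest bin did. Dim probes were called only at larger differences, so these shares depend on the calling. Over all probes of a bin, 12.5%, 9.32%, 7.70%, 6.96% and 7.85% were called with more than a 2-fold difference, from dim to bright. The direction of the calls also varied with signal. Higher probes were 38.5%, 34.6%, 39.4%, 47.0% and 47.4% of the calls from dim to bright. With array median scaling, the brightest bin held 618 higher and 520 lower calls, and with quantile normalization 695 and 565, so which direction prevailed there depended on the scaling. In the dimmest bin, array median scaling gave 210 higher and 266 lower calls.

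**Figure D2:**
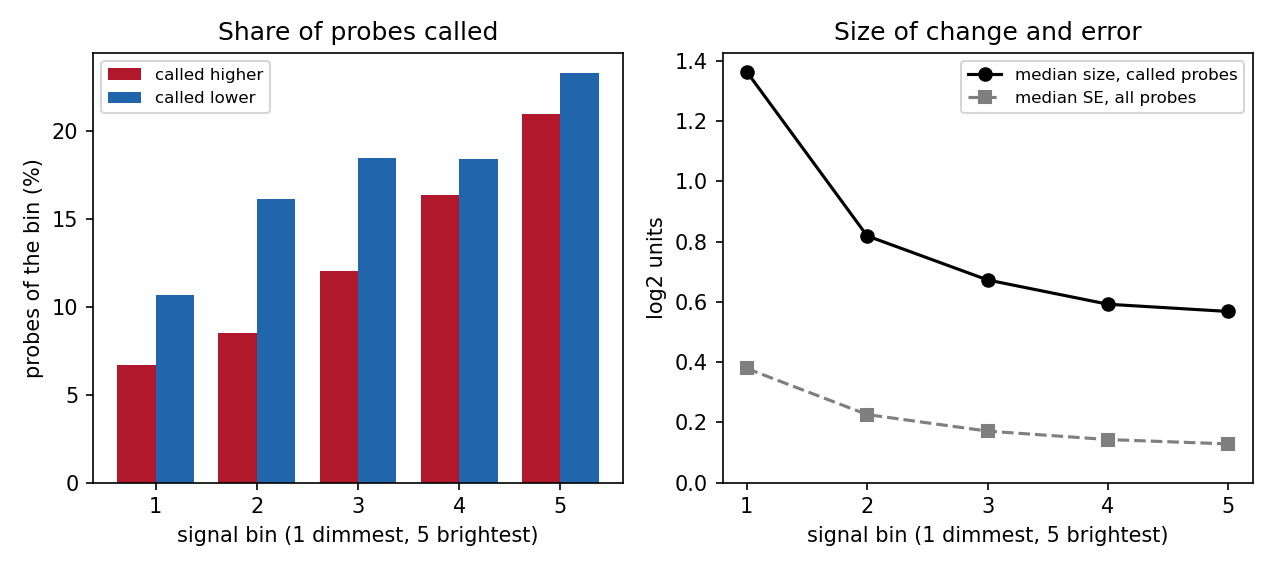
Left, the share of probes called higher or lower with soybean meal in 5 bins of mean signal; right, the median size of the called differences and the median standard error of all probes of the bin, both in log2 units. From bin 1 to bin 5 the share called goes up and the median size of a called difference falls, as the standard error does.

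**Figure D3:**
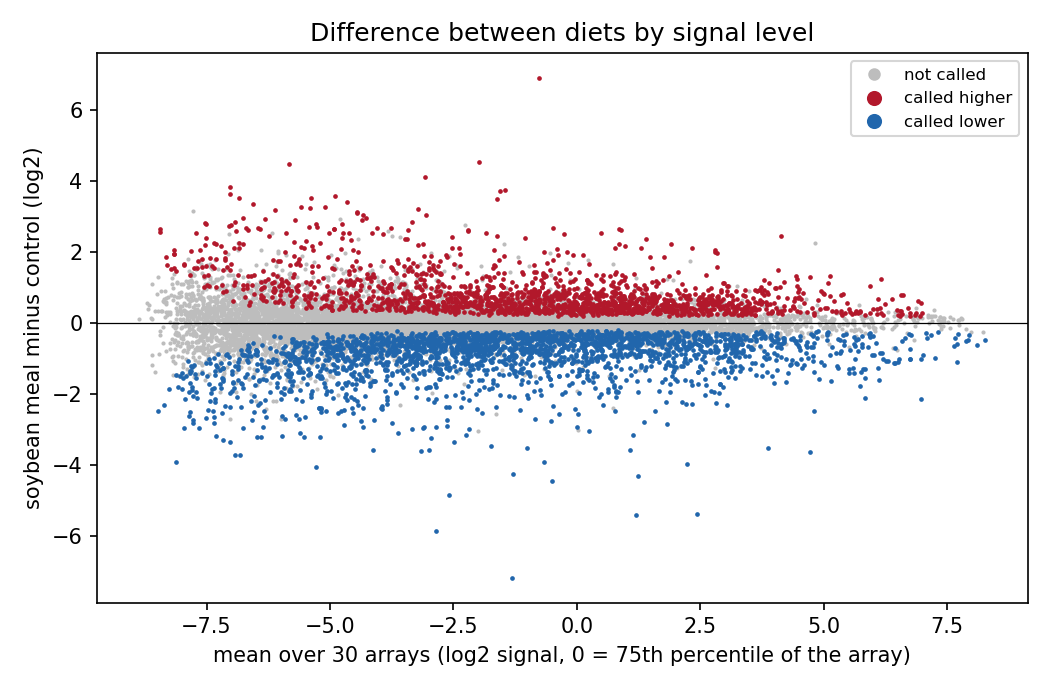
Difference between soybean meal and control fish (log2) against mean signal over 30 arrays (log2, 0 is the 75th percentile of an array), 1 point per tested probe. Differences near 0 are called at the bright end, while dim probes are called only at larger differences.

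The order of the bins did not hold under every background correction. With normexp fitted on all spots it did hold, with 0.0368% (1 probe), 2.87%, 14.2%, 27.0% and 37.9% called from dim to bright. That fit was distorted on 1 array of each diet, with a background of -196 on soybean meal fish 3 and -168 on control fish 2. On most arrays the background was about 1. This limits every result given here with normexp alone. With normexp fitted without flagged backgrounds, the shares were 39.2%, 33.1%, 33.3%, 38.7% and 48.5%. The calls of the dimmest bin were then 6 higher and 1058 lower. Both normexp versions also add an offset of 50 to every signal, which the processed signal does not have. In the dimmest bin, both the number and the direction of calls thus differed between these treatments. The part of the offset and of the percentile scaling in this was not tested. In the brightest bin the share called was between 37.9% and 48.5% in the normexp versions, the array median and quantile scalings and the authors' value table.

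Ssa#CA037592 had the largest increase of the called probes that were in the brightest bin and detected on all 10 arrays. Its values were 2.93, 2.28, 2.80, 1.08 and 3.81 log2 units in soybean meal fish 1 to 5, against -0.10, -0.08, 0.02, -0.17 and -0.0018 in control fish 1 to 5. All soybean meal fish lay above all control fish, and the soybean meal fish also differed far more among themselves. The difference was 2.64 ± 0.30 log2 units (SE), 6.25-fold, with a limma adjusted p of 7.69e-07. The SD was 1.00 between soybean meal fish and 0.077 between control fish (n = 5 each). Soybean meal fish 4 had the lowest value of its diet at this probe, with a raw signal of 1631 against 3909 to 10444 in the other 4 soybean meal fish. The standard error comes from the model, which takes 1 spread per probe from all 6 diets. With only the 2 diets in the fit, the standard error was larger, 0.40, and the limma adjusted p was 0.00148. In fish on other feeds, the probe averaged 1.25 ± 0.42 with soybean meal and P1, 0.93 ± 0.15 with soybean meal and P2, 0.12 ± 0.23 with corn gluten and 0.33 ± 0.36 with corn gluten and P2 (SD, n = 5 each).

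Ssa#S18862026 had the largest decrease of the same set. Its values were -1.81, -3.05, -2.27, 0.74 and -1.56 log2 units in soybean meal fish, against 2.93, 3.37, 5.73, 4.91 and 2.15 in control fish. The diets did not overlap, and soybean meal fish 4 was the highest of its diet. Raw signals were 97 to 1287 with soybean meal and 2627 to 33188 with control feed. The difference was -5.41 ± 0.77 log2 units (SE), a 42.6-fold decrease, with a limma adjusted p of 1.13e-05. The spread was large in both diets, with an SD of 1.42 in soybean meal and 1.47 in control fish. The probe averaged -3.13 ± 1.05 with soybean meal and P1, 0.23 ± 1.49 with soybean meal and P2, 2.89 ± 1.25 with corn gluten and 5.00 ± 0.83 with corn gluten and P2 (SD, n = 5 each).

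**Figure D4:**
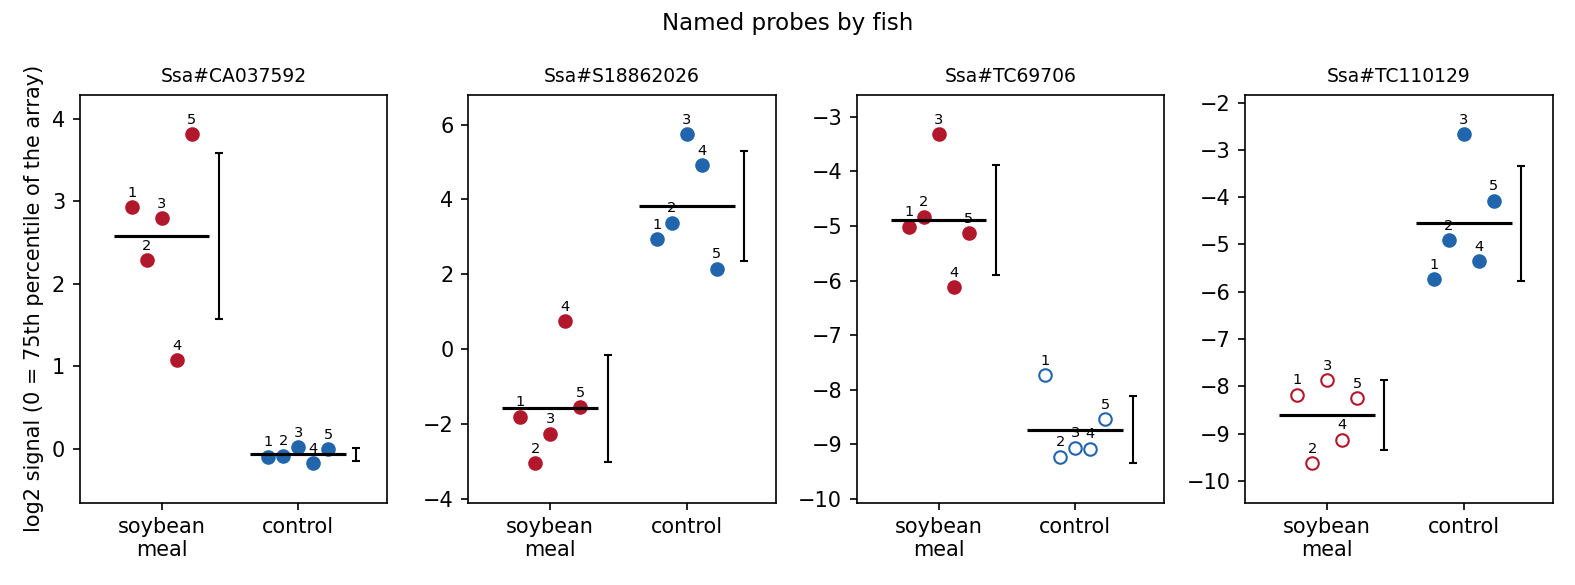
Log2 signal of the 4 named probes in each fish (0 is the 75th percentile of the array), soybean meal left and control right of each panel; filled points are well above background, open points are not, lines are means, bars are SD (n = 5 each), and numbers are fish. At each probe the 2 diets do not overlap, and fish 4 is the soybean meal fish nearest to control at 3 of the 4 probes.

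Most called probes were detected in every fish of both diets, as were most tested probes. All 10 arrays detected 11792 of the 13576 tested probes, of which 3767 (31.9%) were called, 1593 higher and 2174 lower. The other 1784 probes gave 340 calls (19.1%), of which 183 were lower and the rest higher, with a median size of 1.69 log2 units. That size depended on how the signals were treated. It was 0.29 with normexp and 0.35 with normexp fitted without flagged backgrounds, both with the offset of 50. In the authors' values it was 0.95. Of the 1203 probes called with more than a 2-fold difference, 75.7% were detected on all 10 arrays and 24.3% were not. Of the 292 in the second set, 5, 9 and 155 exceeded 2-fold in those 3 sets of values, against 450, 507 and 805 among all called probes detected on all 10 arrays, where 911 did with the processed signal. Of the 60 called with more than an 8-fold difference, 33 were detected on all 10 arrays and 27 were not. With the processed signal, probes not detected on all 10 arrays thus made up more of these large calls than of all tested probes. The median size over all probes, called or not, was 0.29 log2 units for those detected on all 10 arrays and 0.60 for the rest.

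The direction of the calls followed the number of arrays on which a probe was detected. Every call among the 1032 probes detected on more soybean meal than control arrays was higher with soybean meal, and all 173 among the 513 detected on more control than soybean meal arrays were lower. Detection and level are read from the same spots, so this is no independent measure. Probes detected on more soybean meal arrays were the more numerous, but a smaller share of them was called, 15.2% against 33.7%. A change from fully detected to undetected was rare. Only 8 probes were detected on all 5 soybean meal arrays and no control array, and all 8 were called. The reverse, detection on no soybean meal array and all 5 control arrays, held for 20 probes, of which 19 were called. A further 34 tested probes were detected on no array of either diet, having passed the filter through the other diets, and 5 of them were called, all lower; these 5 differences lie below the level of detection in both diets.

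Control fish 1 decided the first of these counts. Without it, 74 probes were detected on all 5 soybean meal arrays and no control array, in place of 8, and 23 on no soybean meal array and all 4 remaining control arrays, in place of 20. Without control fish 5 the second count was 32. Under the software's weaker flag for a positive and significant signal, each count was 1.

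**Figure D5:**
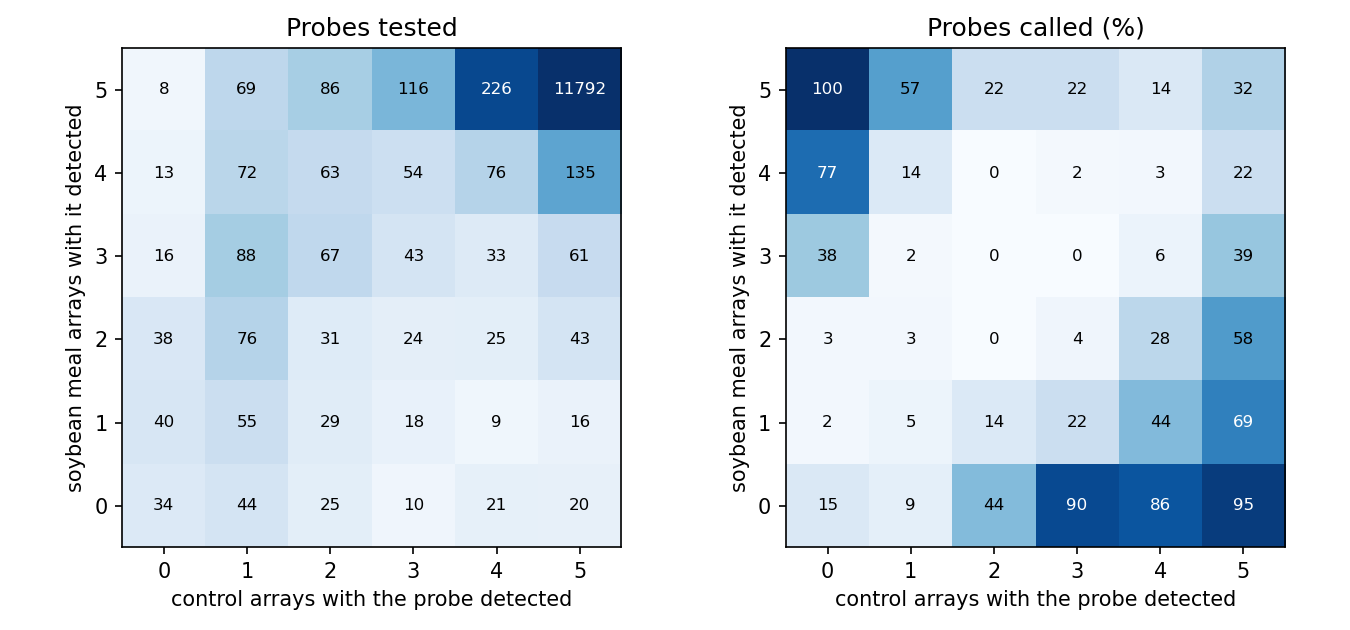
Number of tested probes (left) and percentage of them called (right), by the number of soybean meal arrays (vertical) and control arrays (horizontal) on which the probe was well above background; the colour scale of the left panel is capped. Most probes, 11792, are detected on all 10 arrays, and calls among the others lie towards the corners where 1 diet detects a probe and the other does not.

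For the 28 probes detected fully in 1 diet and not at all in the other, a fold is given as a lower bound within the processed signal. Other background treatments can give smaller differences, as at the 2 probes named below. The bound sets the mean of the diet with signal against a floor in the other diet. In that floor each array counts with its lowest detected signal, or with the probe's own signal if that was higher. For the 8 probes seen with soybean meal, the bounds went from at least 1.11-fold to at least 4.18-fold higher. For the 20 seen with control feed, they went from at least 1.45-fold to at least 6.68-fold lower with soybean meal, and 13 of the 20 bounds exceeded 2-fold. Both sets were chosen on the 10 arrays compared, and the other diets give their detection in fish that did not choose them. The 8 probes were detected in 34 of 40 probe-by-fish combinations with soybean meal and P1 and 33 of 40 with soybean meal and P2, but in 3 of 40 with corn gluten and 4 of 40 with corn gluten and P2. The 20 probes were detected in 37 of 100 with soybean meal and P1, 68 of 100 with soybean meal and P2, 75 of 100 with corn gluten and 54 of 100 with corn gluten and P2. The 8 probes were detected more often in both soybean meal diets than in either corn gluten diet, while for the 20 probes soybean meal with P2 lay between corn gluten with and without P2.

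Ssa#TC69706 had the highest bound among the probes seen with soybean meal only. Its values were -5.01, -4.83, -3.32, -6.12 and -5.13 log2 units in soybean meal fish, against -7.73, -9.23, -9.07, -9.08 and -8.54 in control fish, where it was not well above background. Raw signals were 11.1 to 86.2 with soybean meal and 1.02 to 3.89 with control feed. With the processed signal, the probe was at least 4.18-fold higher with soybean meal, a bound that was given no test. Its measured difference of 3.85 log2 units (limma adjusted p 7.07e-06) rests on signals near the floor. In the authors' values the difference was 2.20 (limma adjusted p 0.0287). It was 0.18 with normexp (adjusted p 0.729) and 0.35 with normexp fitted without flagged backgrounds (adjusted p 0.0869). The probe was detected in all 5 fish fed soybean meal with P1 and 4 of 5 fed soybean meal with P2, and in 0 of 5 with corn gluten and 0 of 5 with corn gluten and P2.

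Ssa#TC110129 had the largest bound among the probes seen with control feed only. Its values were -8.18, -9.62, -7.87, -9.13 and -8.25 log2 units in soybean meal fish, where it was not well above background, against -5.73, -4.91, -2.67, -5.36 and -4.07 in control fish. With the processed signal, the probe was at least 6.68-fold lower with soybean meal, a bound that was given no test. Its measured difference was -4.06 log2 units (limma adjusted p 4.59e-06). In the authors' values the difference was -2.61 (limma adjusted p 3.76e-05). It was -0.79 with normexp (adjusted p 0.143) and -0.90 with normexp fitted without flagged backgrounds (adjusted p 0.0108). Both corn gluten diets had more of it than the control feed, with means of -0.09 ± 0.57 for corn gluten and -1.03 ± 0.83 for corn gluten and P2, against -4.55 ± 1.22 for control (SD, n = 5 each). With soybean meal and P1 it averaged -8.83 ± 0.82, and with soybean meal and P2 -8.54 ± 0.97, and it was detected in 0 of 5 and 1 of 5 of these fish.

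Most called differences were small. Of the 4107 called probes, 69.9% differed by more than 0.5 log2 units, 29.3% by more than 2-fold, 6.87% by more than 4-fold and 1.46% by more than 8-fold. More than 2-fold, 424 probes were higher (3.12% of all tested) and 779 lower (5.74%). More than 8-fold, 23 were higher and 37 lower. Without control fish 1, 577 probes were more than 2-fold higher and 877 lower, and 38 and 51 exceeded 8-fold. With normexp the counts over 2-fold were 136 higher and 307 lower, and with normexp fitted without flagged backgrounds 162 and 358. The highest difference of all probes was 6.91 log2 units and the lowest -7.18. When the test asked whether a difference exceeded 1.5-fold, rather than 0, 427 probes passed in limma, 117 higher and 310 lower.

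Large differences were not limited to called probes. Over all tested probes, 1600 (11.8%) differed by more than 2-fold between the diet means, of which 1203 were called. Beyond 8-fold, 60 of 63 were called. The middle 50% of all differences lay between -0.36 and 0.28 log2 units. Among called probes the middle 50% of sizes lay between 0.46 and 1.09.

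The spread between fish did not differ between the diets by the test over single fish, though the size of the difference varied with the control fish left out. The median SD of a probe was 0.28 log2 units between soybean meal fish and 0.26 between control fish. The SD was larger in soybean meal fish at 55.2% of the probes, and more than double that of the other diet at 2167 probes with soybean meal and 1461 with control feed. Over the other 4 diets the median SD was 0.26 to 0.27. Each fish's median distance from the mean of the other 4 fish of its diet was 0.240 ± 0.028 log2 units in soybean meal fish and 0.224 ± 0.046 in control fish (SD, n = 5 each). The difference of 0.016 gave p = 0.50 in a two-sided permutation test over all arrangements of these distances. There 0.00794 is the smallest p that 5 fish against 5 can give. The distances within a diet depend on one another, so the p-values of this test are approximate. The difference was 0.033 without control fish 1 (exact p = 0.0635), where the median SD between the other 4 control fish was 0.23. It turned negative without control fish 2 (-0.0053, exact p = 0.873) and without control fish 5 (-0.0057, exact p = 0.833). With a control fish left out, the remaining control fish were each set against fewer fish than the soybean meal fish were. This tends to raise their distances, so the sign of these small differences cannot be set beside that over all fish. Across kept probes, soybean meal fish correlated with each other at 0.967 to 0.980, control fish at 0.963 to 0.984, and fish of different diets at 0.937 to 0.981.

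The number of detected probes did not separate the diets when all fish were used. Soybean meal arrays had 12981 ± 207 detected probes and control arrays 12770 ± 356 (SD, n = 5 each), a difference of 212 (exact two-sided permutation p = 0.294, adjusted p = 0.5 over the 4 measures tested per fish). Without control fish 1 the difference was 363 (exact p = 0.0397, not adjusted). That fish was noted partly for its many detected probes, so this p cannot serve as a test. The raw 75th percentile of signal was 801 ± 45 with soybean meal and 656 ± 108 with control feed (exact p = 0.0397, adjusted 0.159). The median local background was 16 on every soybean meal array and 16 or 17 on the control arrays (exact p = 0.444, adjusted 0.5). The part of the arrays' brightness in the detection counts above was not tested.

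A call did not mean that every fish of one diet lay beyond every fish of the other. Of the 4107 called probes, 2320 (56.5%) showed no overlap between the 5 soybean meal and 5 control fish, 838 of them higher and 1482 lower. Over all tested probes, the soybean meal fish lay entirely above the control fish at 891 (6.56%) and entirely below at 1595 (11.7%). The share without overlap was 47.9% of the probes called higher and 62.9% of those called lower. It was 74.1% of probes called with more than a 2-fold difference and 93.3% of those with more than 8-fold, 56 of 60. Without control fish 1, the counts over all tested probes were 1522 above and 2094 below, which is easier to meet with 4 control fish than with 5.

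Probes detected on all 10 arrays were also described alone. Of those called with more than a 2-fold difference and detected on all 10 arrays, 72.6% of the 292 higher and 84.7% of the 619 lower probes showed no overlap. Their median SD was 0.38 in soybean meal and 0.42 in control fish for the higher set, and 0.35 and 0.36 for the lower set. The share of all tested probes without overlap went from 10.97% in the dimmest signal bin to 27.4% in the brightest.

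On the scale of single fish, the higher and lower probes did not place every fish alike. Soybean meal fish 4 stood at 0.67 on the higher and 0.79 on the lower probes chosen without it, and soybean meal fish 5 at 0.92 and 0.76. Control fish 1 stood at 0.49 on the higher and 0.36 on the lower probes, so its closeness to the soybean meal fish was somewhat greater for the higher ones. With array median scaling, quantile normalization, the authors' value table and both normexp versions, control fish 1 stood at 0.40 to 0.51. Soybean meal fish 3 stood at 1.04 to 1.15 in all of these except the normexp version fitted on all spots, which placed it at -0.14.

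The called probes were also followed in fish of other diets, which are on neither side of the comparison. Soybean meal with P1 against corn gluten, and soybean meal with P2 against corn gluten with P2, each set fish fed soybean meal against fish fed another plant protein. Neither shares a fish with soybean meal against control, although all 30 arrays entered the filter and the shared estimate of spread. Both use corn gluten in place of the control feed, the first has P1 on the soybean meal side only, and the second has P2 on both sides. Slides were shared with the first comparison. Fish 3 to 5 fed soybean meal and P1 were on slides 6 and 5, with soybean meal fish 1 to 4. Fish 1 and 2 of that diet were on slide 3, with control fish 5. Corn gluten fish 1, 2 and 5 were on slide 4, with soybean meal fish 5, and fish 3 and 4 on slide 3. Fish 1 and 2 fed soybean meal and P2 were on slide 2, with control fish 3 and 4. Fish 3 and 4 of that diet were on slide 4, with soybean meal fish 5, and fish 5 on slide 3, with control fish 5. Fish 1, 2 and 5 fed corn gluten and P2 were on slide 5, with soybean meal fish 3 and 4. Fish 3 and 4 of that diet were on slide 1, with control fish 1 and 2. The 2 sides of the P2 contrast had no slide in common. The part of slide in the shares below was not tested. Of the 4107 called probes, 95.03% had the same direction in the P1 contrast, against 75.8% of all tested probes and 67.4% of those not called. In that contrast 57.0% of the called probes passed the test themselves, against 26.5% of all tested probes, 2336 in the same direction and 4 in the opposite one. In the P2 contrast, 81.7% had the same direction, against 63.1% of all tested probes and 55.0% of those not called, and 36.7% passed, against 18.9% of all tested probes, 1465 in the same direction and 44 opposite. Without control fish 1, 94.3% and 79.4% of the probes then called had the same direction. When limma was fitted to the 10 arrays of each comparison alone, an alternative chosen after seeing the data, 3324 probes (24.5%) were called for soybean meal against control. Of these, 95.5% had the same direction in the P1 contrast and 50.2% passed there, against 24.5% of all tested probes. In the P2 contrast 77.9% had the same direction and 29.0% passed, against 12.9% of all tested probes. In the direction of the call, the called differences had a median of 0.49 in the P1 contrast and 0.32 in the P2 contrast, against 0.70 where they were called. The last value is over probes selected on those same fish, which tends to raise it. These sizes therefore do not show whether the response was weaker in the other fish.

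By direction, 94.3% of the called higher and 95.6% of the called lower probes had the same direction in the P1 contrast. In the P2 contrast it was 89.0% of the higher and 76.4% of the lower. Of the 1750 called higher, 1140 passed as higher in the P1 contrast, where 13.6% of all tested probes did, and 763 in the P2 contrast, where 8.88% did. Of the 2357 called lower, 1196 passed as lower in the P1 contrast, where 13% of all tested probes did, and 702 in the P2 contrast, where 10% did. Of the probes called more than 2-fold higher, 86.8% had the same direction in the P1 contrast and 77.6% in the P2 contrast, where 28 passed in the opposite direction. Of those called more than 2-fold lower, 97.8% and 69.8% had the same direction. Whether the 2 contrasts or the 2 directions differ in these shares was not tested.

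The share of called probes with the same direction went up with signal level. From the dimmest to the brightest bin, 87.7%, 93.7%, 94.7%, 96.2% and 98.0% of called probes had the same direction in the P1 contrast. In the P2 contrast the shares were 50.2%, 69.6%, 83.3%, 91.2% and 92.3%. Over the 1200 called probes of the brightest bin, the differences correlated across probes at 0.94 with the P1 contrast and 0.91 with the P2 contrast, and over the 470 of the dimmest bin at 0.69 and 0.03. Over all 13576 tested probes the correlations were 0.64 and 0.22, and over the 9469 not called 0.33 and -0.20. Probes of 1 array share its library and scaling, so these correlations describe the fish and were given no p. In the dimmest bin, the direction in the P2 contrast was evenly split.

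The 4 named probes kept their direction in both contrasts. They were chosen for the size of their differences or bounds against control, which tends to enlarge those. Ssa#CA037592 differed by 1.13 ± 0.30 log2 units in the P1 contrast (SE, limma adjusted p 0.0059). It differed by 0.60 ± 0.30 in the P2 contrast (limma adjusted p 0.154), and both lay below the 2.64 against control. This standard error takes in the spread of the soybean meal fish (SD 1.00), which are in neither contrast. In the P2 contrast the SD was 0.15 with soybean meal and 0.36 with corn gluten. Ssa#S18862026 differed by -6.03 ± 0.77 and -4.76 ± 0.77 (limma adjusted p 6.25e-06 and 0.000234), near its difference against control. Ssa#TC69706 was not well above background in any fish of either corn gluten diet, and was at least 5.50-fold higher in the P1 contrast. In the P2 contrast the same calculation gave 2.02-fold. There 4 of 5 fish fed soybean meal with P2 had it detected and the other entered with its measured signal, so this is no strict bound. The measured differences were 4.21 and 2.63 log2 units (limma adjusted p 4.98e-06 and 0.00149). No fish fed soybean meal with P1 had Ssa#TC110129 well above background, which put it at least 146-fold lower in the P1 contrast. With soybean meal and P2 it was detected in 1 of 5 fish, and with undetected arrays set to the floor it was at least 72.2-fold lower than with corn gluten and P2. Its measured differences were -8.74 and -7.51 log2 units (limma adjusted p 4.41e-11 and 7.81e-10), and the bounds were given no test.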

How the data were processed

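Distal intestine RNA of 30 fish was measured on 1-colour arrays. Per the file headers, the authors quantified them with Agilent Feature Extraction 12.0.1.1, and the deposited processed signal is a background-subtracted intensity on a linear scale, not normalized between arrays. The authors' value table, of deposited intensity values, was an alternative only. Judged by its values, it was scaled to nearly equal sums per array.

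Here log2 of the signal minus each array's 75th percentile over non-control probes was taken. Outlier spots (598) were left missing, 0 spots were saturated, and probes well above background on at least 5 of 30 arrays were kept. limma 3.58.1 (R 4.3.3) fitted 1 coefficient per diet to all 30 arrays (24 residual degrees of freedom), with eBayes without trend and Benjamini-Hochberg adjustment. Every adjusted p of a probe comes from this fit, unless another version such as normexp is named with it. The script was tested on simulated data. The number of arrays limits the precision.

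Normexp was planned on mean signals, which the data used here do not hold, and was run on median signals with an offset of 50. The 4 named probes are the highest and lowest log2 differences among called probes of the brightest bin detected on all 10 arrays, and the highest and lowest bounds among called probes detected in 1 diet only. Gene lists and cell type markers could not be used without gene names. The comparison, lists and rules were chosen with earlier results of these data known. Alternatives were other background corrections, scalings, filters, slide, fish number and run of fish numbers as terms, only the 2 diets, other variance priors, a minimum fold and leaving out each fish. The 2 normexp versions differ in the spots used, and the second, like the removal of control fish 1, was chosen after seeing the data.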

Additional observations from a re-analysis of the deposited data

How the results depend on the processing

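Across 24 alternatives the count of probes called for soybean meal against control stayed within 1.5 times of 4107 in 21, and Ssa#CA037592 and Ssa#S18862026 passed in all 24. With normexp 2227 probes were called (954 higher, 1273 lower), and 2206 and 1363 in the P1 and P2 contrasts. Spots with a flagged, bright local background gave that fit a background of -196 on soybean meal fish 3 and -168 on control fish 2, against about 1 on most arrays. Fitted without them, it called 3769 lower. Normexp shifted the median of all differences by -0.10, and the second version by -0.12. With slide as a fixed term 2548 were called (1057 higher, 1491 lower), and 1873 and 1137 in the P1 and P2 contrasts; with a minimum of 1.5-fold 427 (117 higher, 310 lower), 249 and 77. Leaving out 1 fish gave 3251 (without control fish 4) to 4528 (without control fish 1) calls, 1336 to 2011 higher and 1915 to 2517 lower, and 2791 to 3748 and 1785 to 2576 in the P1 and P2 contrasts. The difference in detected probes per fish was 142 to 363 over these. Its exact permutation p was 0.0397 without control fish 1, a fish noted partly for this number, so that p cannot serve as a test. The difference in deviation between fish was -0.0057 to 0.035. It was negative without control fish 2 (-0.0053), without control fish 5 (-0.0057) and with the second normexp version (-0.0087). Where a fish was left out, the others of its diet were set against fewer fish, which tends to raise their deviation. The causes of these changes were not tested, apart from the flagged spots.

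Fish numbers did not pair the fish: same-numbered soybean meal and control fish correlated in their deviations at 0.057, 0.069, 0.14, -0.083 and -0.15. With fish number as a replicate block, 4148 probes were called (1784 higher, 2364 lower), and 1 of 5 soybean meal fish matched its own number best. Slide and runs of fish numbers as random blocks gave 4097 and 3936. Signals near background limit the dim probes, and both normexp versions add the offset of 50 to them. Of the 340 called probes not detected on all 10 arrays, 4 were called with normexp and 191 with its second version. Of the 3767 detected on all 10, these counts were 2216 and 3483.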
